A study of Mus musculus with 8 samples.

Results

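Respiratory complex I (NADH:ubiquinone oxidoreductase) was followed through 34 of its nuclear genes in the submandibular gland of Dp16 mice and of wild-type (WT) mice. The genes were taken by symbol from a list of complex I subunits and matched to the Ensembl identifiers of the count tables through the GENCODE M21 annotation of the mouse build GRCm38. All 34 were found among the 54838 genes counted. The list holds 6 core subunit genes and 28 accessory subunit genes. By position in the enzyme, 14 of them encode subunits of the peripheral arm and 19 subunits of the membrane arm, and 1, Ndufab1, encodes a protein that sits in both.

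RNA sequencing was done on 8 libraries of male submandibular gland, 4 labelled Dp16 and 4 labelled WT. The Dp16 libraries came from the strain B6.129S7-Dp(16Lipi-Zbtb21)1Yey/J, a mouse model of Down syndrome that carries a duplication of the stretch of chromosome 16 between Lipi and Zbtb21 in every cell, and the WT libraries came from C57BL/6J. The sources used here give neither the ages of the mice nor whether a library held 1 animal or several, so the spread between libraries is taken as the error throughout. None of the 34 genes lies in the duplicated stretch (chr16:75540514-97962622, GRCm38); Ndufb4 is on the same chromosome but outside it, at chr16:37647170-37654453.

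Complex I is the entry point of electrons into the mitochondrial respiratory chain: it oxidises NADH, passes the electrons along iron-sulphur clusters to ubiquinone, and pumps protons across the inner membrane. Its core subunits, shared with bacteria, carry the cofactors and the proton channels, and the channel-forming ones are encoded by mitochondrial DNA. The accessory subunits surround that core and are needed for its assembly and stability. In salivary glands the duct cells are the cells richest in mitochondria.

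Many nuclear genes of the respiratory chain are known targets of the transcription factors NRF1, GABP (an ETS family factor) and YY1, so the start of each member was searched for their motifs. A promoter window of 250 bases before to 50 bases after the start was present in the RefSeq table (GRCm38.p6) for 31 of the 34 genes; Ndufs1, Ndufa2 and Ndufb9 were not in it. The NRF1 motif, searched on both strands like the others, was found in 7 of these 31 genes, or 22.6%, and in 5.19% of the 27025 genes of the table. Those 7 were Ndufa5, Ndufa6, Ndufa8, Ndufa11, Ndufb4, Ndufs5 and Ndufs6. Of them, 3 are shown as examples of a match wholly upstream of the annotated gene, each read 5′ to 3′ on the strand of its gene, with the NRF1 match in capitals. The stretches lie at chr17:56717682-56717731 (plus strand) for Ndufa11, at chr4:123718255-123718304 (minus strand) for Ndufs5 and at chr16:37654530-37654579 (minus strand) for Ndufb4.
Ndufa11: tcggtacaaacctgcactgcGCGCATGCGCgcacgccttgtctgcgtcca
Ndufs5: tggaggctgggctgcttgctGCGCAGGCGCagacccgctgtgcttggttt
Ndufb4: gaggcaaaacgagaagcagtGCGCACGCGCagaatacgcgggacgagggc

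The NRF1 match ended 50 bases before the start of Ndufa11, 88 bases before that of Ndufs5 and 181 bases before that of Ndufb4. The YY1 motif AAGATGGCG was found in 5 genes (Ndufa9, Ndufc1, Ndufs4, Ndufs6 and Ndufs7), or 16.1%, against 1.64% of all genes. The ETS motif CCGGAAG was found in 4 genes, or 12.9%, against 9.93% of all genes. The motif TNAAGGTCA of the oestrogen-related receptors was found in Ndufb4 alone, or 3.23%, against 1.43% of all genes. These matches describe the letters of the windows and not binding, and the motifs can overlap each other.

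The libraries held 90790542 to 115729892 reads in genes, and levels are given as CPM, the count of a gene relative to all reads in genes, scaled between libraries by the trimmed mean of M values (TMM), a method that centres the bulk of genes. Of the markers of this gland, the 15 acinar genes summed to 234268 to 319115 CPM in Dp16 and to 265529 to 374317 CPM in WT, most of it from Mucl2. The 12 genes of granular convoluted tubules summed to 65046 to 135181 CPM in Dp16 and to 110405 to 187884 CPM in WT. Kap, which was listed with the tubule genes, was at 0 in every library, and the acinar markers Smgc, Dcpp1, Dcpp2 and Dcpp3 were near 0 in most. These acinar markers were highest in WT library 3, with 5.15, 22.3, 70.8 and 39.1 CPM in that order. Dp16 library 4 came next, with 0.475, 2.55, 4.75 and 3.57 CPM. The share of reads outside annotated features stood apart between the groups, at 19.8% ± 1.16 in Dp16 and 15.0% ± 0.965 in WT (SD, n = 4 each). The TMM factors ran from 1.00 to 1.19 in Dp16, with the highest in Dp16 library 3, and from 0.872 to 1.00 in WT.

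All 34 complex I genes had a lower mean level in Dp16 glands than in WT glands, by a median of 21.6% (median log2 fold change -0.35, Dp16 over WT, n = 4 each); with library totals in place of TMM scaling, 33 had a negative log2 fold change and Ndufs5 a positive one. The log2 fold changes ran from -0.57 for Ndufc1 to -0.07 for Ndufs5, with an SD over the 34 genes of 0.09, and 29 of them lay between -0.50 and -0.25. Over all 19358 genes tested the median was 0.01, and 48.9% of genes had a negative log2 fold change. No single member passed edgeR's quasi-likelihood test at a Benjamini-Hochberg adjusted p below 0.05, a rule that called 0.625% of all genes, and 0.155% of all genes as lower. At an unadjusted p below 0.05, 29 members were lower in Dp16, against 11.9% of all genes. With 4 libraries of whole glands in a group, fewer cells rich in mitochondria and less RNA per cell cannot be told apart.

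Other tests on the same counts called some members lower. The counts of 1 simulation were drawn with the spread between libraries that edgeR itself estimated, which can favour edgeR. In it, 44 of 201 DESeq2 calls were false, against 6 of 138 by edgeR and 5 of 133 by limma-voom. Of its 1.5-fold changes, DESeq2 recovered 55.2%, edgeR 32.8% and limma-voom 28.4%, and no smaller change was simulated. DESeq2 called 11 of 34, against 4.37% of all genes it tested: Ndufa2, Ndufa6, Ndufa7, Ndufa8, Ndufb2, Ndufb4, Ndufb5, Ndufb7, Ndufb8, Ndufc1 and Ndufs7. Limma-voom with quality weights called 1, Ndufs7, against 0.77% of all genes. At an edgeR adjusted p below 0.10 there were 7, against 2.9% of all genes. The scaling between libraries carries weight here. With library totals in place of TMM, the median of all genes moved to 0.18 on the log2 scale and that of the members to -0.20, a distance of -0.38; then 2 members were lower at an unadjusted p below 0.05, against 2.22% of all genes.

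**Figure D1:**
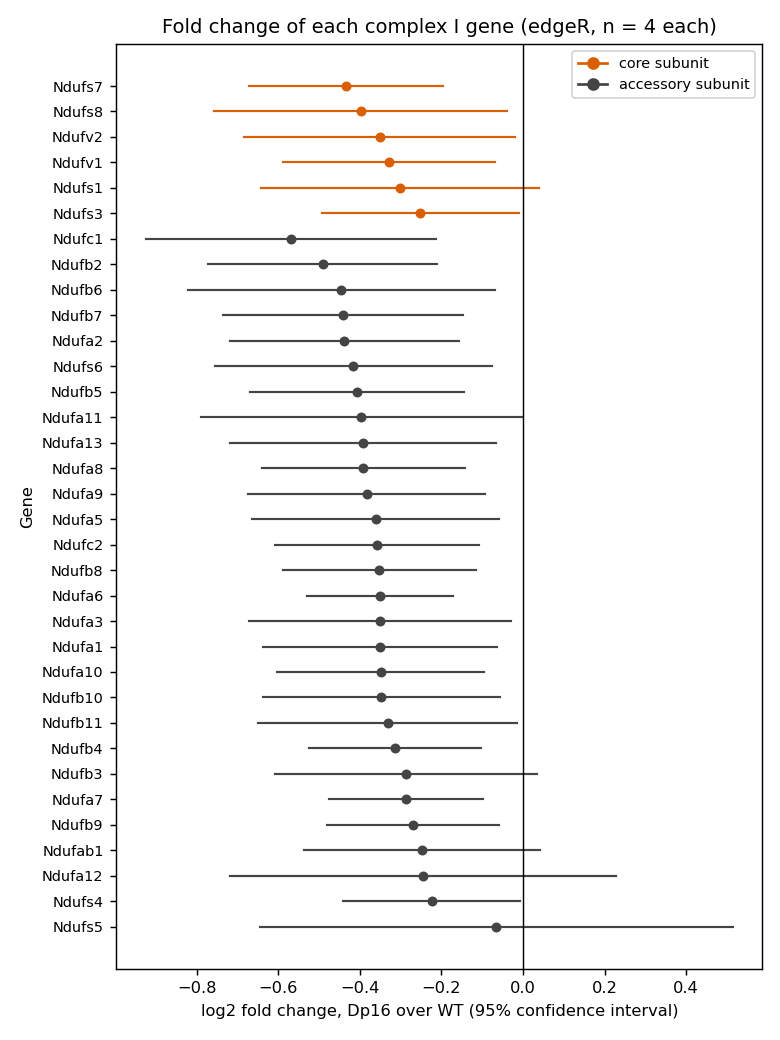
Log2 fold change of each of the 34 complex I genes, Dp16 over WT, with its 95% confidence interval from edgeR (4 libraries in each group); core subunits are at the top in orange and accessory subunits below in grey. Every point lies left of 0, from -0.57 for Ndufc1 to -0.07 for Ndufs5, and 29 of the 34 intervals end below 0; with library totals in place of TMM the point of Ndufs5 is above 0.

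The members moved together from library to library. Their summed level was 1077, 1240, 913 and 1255 CPM in Dp16 libraries 1 to 4, against 1329, 1628, 1351 and 1414 CPM in WT libraries 1 to 4. On this scale every Dp16 library was below every WT library, with a mean of 1121 ± 161 CPM in Dp16 and 1431 ± 137 CPM in WT (SD, n = 4 each). Dp16 library 3 was the lowest of the 8 libraries for 31 of the 34 genes, and WT library 2 was the highest for 28. Over all 19358 genes tested, Dp16 library 3 was the lowest for 4266 and the highest for 4176. WT library 2 was the highest for 3117 of them. The median member lay 0.41, 0.20, 0.66 and 0.20 log2 units below the WT mean in Dp16 libraries 1 to 4, and the 4 WT medians lay between -0.09 and 0.20. With library totals in place of TMM the sums were 1080, 1280, 1084 and 1290 CPM in Dp16, against 1225, 1599, 1177 and 1420 CPM in WT, and the groups overlapped. Dp16 library 3, whose TMM factor of 1.19 lowers all its genes together, then no longer had the lowest sum.

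For 14 of the 34 genes all 4 Dp16 libraries lay below all 4 WT libraries, as they did for 6.96% of all genes tested. For 10 more genes 3 of the 4 Dp16 libraries lay below the lowest WT library, and for the remaining 10 genes at most 2 did. With library totals no member separated the groups completely, against 1.04% of all genes. Without Dp16 library 2, edgeR called 1 member, Ndufs7, against 0.467% of all genes called lower. Leaving out WT library 2 brought the number of members with an unadjusted p below 0.05 to 16, leaving out Dp16 library 1 also to 16, and leaving out Dp16 library 3 to 17, where the shares of all genes were 7.59%, 8.35% and 8.17%. The median log2 fold change of the members was -0.27 without Dp16 library 3, the least negative value with any 1 library left out.

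**Figure D2:**
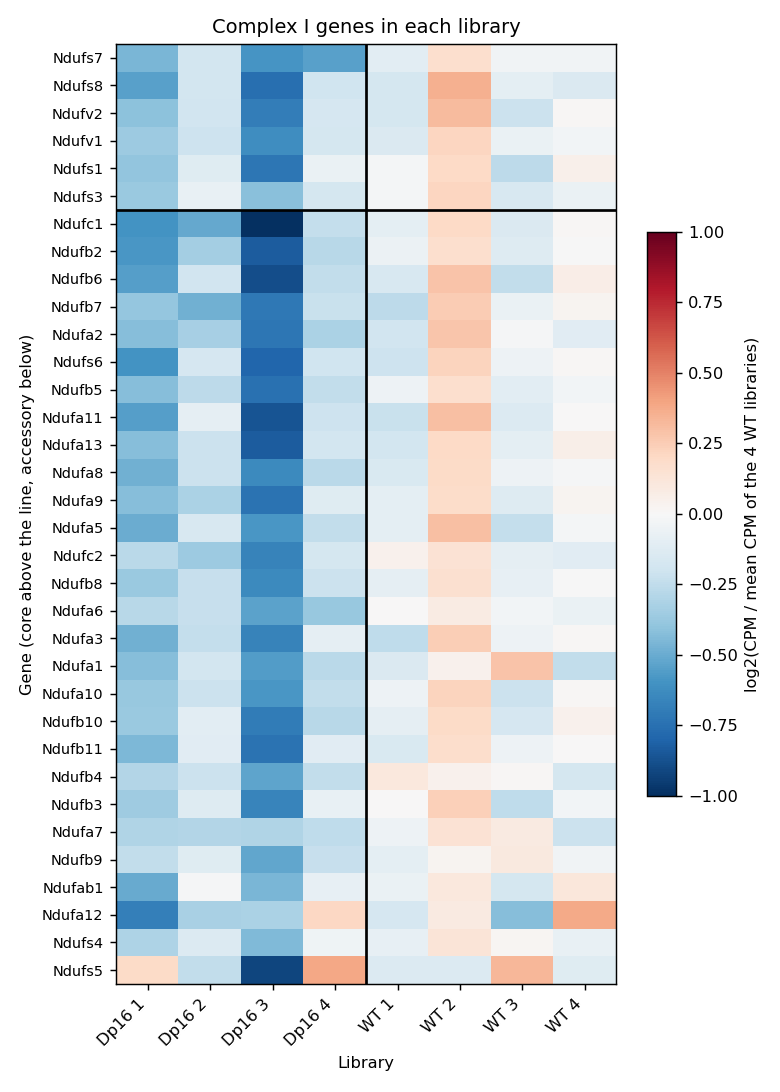
Level of each complex I gene (rows; core above the line, accessory below, ordered by fold change) in each library (columns; 4 Dp16 left, 4 WT right), as log2 of its CPM over the mean CPM of the 4 WT libraries. Blue cells are below the WT mean and red cells above it. Dp16 library 3 is the darkest blue column and is lowest of all 8 libraries for 31 genes (4266 of all 19358 genes tested). WT library 2 is highest for 28 (3117 of all 19358 genes tested).

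The 6 core genes encode the nuclear part of the electron path. Their median log2 fold change was -0.34, with 5 of 6 lower at an unadjusted p below 0.05, against 11.9% of all genes. Of these 6, 3 were lower without overlap between the groups, against 6.96% of all genes. The summed level of the core genes was 214, 255, 180 and 253 CPM in Dp16 libraries 1 to 4, against 265, 337, 254 and 282 CPM in WT libraries 1 to 4. Dp16 library 2 was just above WT library 3, so that the sums of the groups touched.

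Ndufs7 encodes the subunit that holds the last iron-sulphur cluster before ubiquinone. It had 17.2, 20.7, 15.6 and 16.1 CPM in Dp16 libraries 1 to 4, against 21.8, 26.3, 22.9 and 22.9 CPM in WT libraries 1 to 4. Every Dp16 value was under every WT value, and libraries 3 and 4 were the lowest. The log2 fold change of Ndufs7 was -0.43 ± 0.11 (SE), with an edgeR adjusted p of 0.0766, a DESeq2 adjusted p of 0.0116 and a limma-voom adjusted p of 0.0495. Ndufs8, whose product also carries iron-sulphur clusters, had 23.6, 30.3, 20.4 and 29.9 CPM in Dp16, against 30.4, 43.8, 32.1 and 31.0 CPM in WT. The groups met without overlapping, at 30.3 CPM in Dp16 library 2 and 30.4 CPM in WT library 1, and WT library 2 stood well above the other WT libraries. The log2 fold change of Ndufs8 was -0.40 ± 0.16 (SE, edgeR adjusted p 0.171).

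Ndufv1 encodes the subunit that binds NADH and the flavin. It had 39.8, 44.5, 33.4 and 45.5 CPM in Dp16, against 46.3, 59.5, 48.9 and 50.3 CPM in WT, and the highest Dp16 library lay just under the lowest WT library. The log2 fold change was -0.33 ± 0.12 (SE, edgeR adjusted p 0.138). Ndufv2 encodes its partner in the NADH-oxidising module. It had 48.3, 56.0, 39.6 and 57.1 CPM in Dp16, against 56.6, 79.6, 55.3 and 64.7 CPM in WT, and 2 Dp16 libraries reached into the WT range. Its log2 fold change was -0.35 ± 0.15 (SE, edgeR adjusted p 0.186).

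Ndufs1 encodes the largest subunit of the complex, which passes electrons on from the flavin. It had 66.0, 79.7, 52.5 and 82.8 CPM in Dp16, against 85.2, 99.2, 72.3 and 89.7 CPM in WT. Dp16 libraries 2 and 4 were above WT library 3, so the groups overlapped, and the log2 fold change was -0.30 ± 0.15 (SE, edgeR adjusted p 0.248). Ndufs3, a core subunit of the arm's base without a cluster, had 19.2, 23.6, 18.6 and 22.1 CPM in Dp16, against 24.5, 28.9, 22.3 and 23.8 CPM in WT. One Dp16 library, number 2, exceeded WT library 3. With a log2 fold change of -0.25 ± 0.11 (SE, edgeR adjusted p 0.189) it had the smallest difference of the core genes.

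The 28 accessory genes had a median log2 fold change of -0.35, close to that of the core genes beside the spread of single members. Of the 28, 24 had an unadjusted p below 0.05, all lower in Dp16, against 11.9% of all genes. No overlap was seen for 11, all lower in Dp16, against 6.96% of all genes. The 2 arms of the enzyme were alike too: the median was -0.35 for the 14 peripheral genes and -0.35 for the 19 membrane genes. The members are not replicates of each other, and the difference between the classes was not tested.

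On the peripheral arm, Ndufa6 encodes an accessory subunit that anchors an acyl carrier protein to the complex. It had 44.5, 45.9, 37.2 and 41.4 CPM in Dp16, against 53.9, 57.1, 52.9 and 51.6 CPM in WT, a wide gap between narrow groups. Its log2 fold change of -0.35 ± 0.08 (SE) had the smallest edgeR adjusted p of all members, 0.0704. Ndufa2, which has a thioredoxin-like fold, had 26.9, 28.7, 21.8 and 29.0 CPM in Dp16, against 31.5, 43.6, 35.8 and 33.2 CPM in WT, again without overlap. Ndufa2 had a log2 fold change of -0.44 ± 0.12 (SE, edgeR adjusted p 0.0965). Ndufa7 was the least variable member among Dp16 glands, with 32.0, 32.3, 32.0 and 33.1 CPM in Dp16, against 38.1, 43.7, 42.1 and 33.98 CPM in WT. The groups were separated only narrowly, at WT library 4, and the log2 fold change was -0.29 ± 0.08 (SE, edgeR adjusted p 0.103).

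On the membrane arm, the largest difference was that of Ndufc1, a small subunit near the middle of the arm. It had 15.8, 16.8, 11.5 and 20.3 CPM in Dp16, against 22.4, 27.5, 21.6 and 24.1 CPM in WT, with Dp16 library 3 far below the rest. Its log2 fold change was -0.57 ± 0.16 (SE), with an edgeR adjusted p of 0.0932. Ndufb2 had 22.6, 26.8, 19.0 and 27.8 CPM in Dp16, against 32.4, 38.0, 30.9 and 33.8 CPM in WT. The groups did not overlap, and the log2 fold change was -0.49 ± 0.12 (SE, edgeR adjusted p 0.0815). Ndufa8 and Ndufb7 encode subunits with paired cysteine motifs that face the intermembrane space. Ndufa8 had 27.7, 33.3, 24.8 and 32.0 CPM in Dp16, against 34.8, 44.1, 37.2 and 38.3 CPM in WT, without overlap, and a log2 fold change of -0.39 ± 0.11 (SE, edgeR adjusted p 0.0963). Ndufb7 had 29.1, 27.3, 23.2 and 32.7 CPM in Dp16, against 31.8, 45.5, 36.4 and 38.8 CPM in WT. Dp16 library 4 was above WT library 1, and the log2 fold change was -0.44 ± 0.13 (SE, edgeR adjusted p 0.104).

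Ndufb4, Ndufb5 and Ndufb8 encode further subunits of the distal membrane arm. Ndufb5 had 45.5, 50.8, 36.4 and 51.6 CPM in Dp16, against 59.0, 68.7, 56.7 and 59.9 CPM in WT, a clear gap, and a log2 fold change of -0.41 ± 0.12 (SE, edgeR adjusted p 0.0986). Ndufb8 had 39.3, 43.3, 32.7 and 43.8 CPM in Dp16, against 47.7, 56.8, 47.9 and 50.7 CPM in WT, and a log2 fold change of -0.35 ± 0.11 (SE, edgeR adjusted p 0.105). Ndufb4 had 20.5, 21.7, 17.4 and 21.3 CPM in Dp16, against 27.1, 25.9, 25.4 and 22.2 CPM in WT. None of these 3 genes overlapped between the groups, and for Ndufb4, with a log2 fold change of -0.31 ± 0.09 (SE, edgeR adjusted p 0.105), WT library 4 was close to the Dp16 range.

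The 3 accessory genes with the smallest differences were Ndufs5, Ndufs4 and Ndufa12. Ndufs4 encodes a subunit at the NADH-oxidising end whose loss in the mouse gives a model of Leigh syndrome. It had 33.4, 37.8, 30.6 and 40.2 CPM in Dp16, against 39.2, 45.3, 42.0 and 39.4 CPM in WT, so that only Dp16 library 4 reached the WT range. Its log2 fold change was -0.22 ± 0.10 (SE, edgeR adjusted p 0.192). Ndufa12, which joins the same end of the arm late in assembly, had 16.8, 21.6, 21.7 and 31.2 CPM in Dp16, against 24.1, 28.8, 20.1 and 35.2 CPM in WT. The groups were interleaved, with library 4 high in both, and the log2 fold change was -0.25 ± 0.21 (SE, edgeR adjusted p 0.486). Ndufs5, another subunit of the intermembrane side, had 5.26, 3.88, 2.43 and 6.00 CPM in Dp16, against 4.19, 4.17, 5.80 and 4.23 CPM in WT. Its log2 fold change of -0.07 had an SE of 0.26 (edgeR adjusted p 0.894), and its 95% confidence interval ran from -0.65 to 0.51, which takes in the median of the members.

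Both of the most irregular members, Ndufs5 and Ndufa12, have a copy elsewhere in the genome that collects reads. Of the 34 genes, 8 had a processed pseudogene whose transcript matched their own at 95% identity or more over at least 50 bases, 10 copies in all, and 8 of the copies stayed under 0.25 CPM in every library. BC002163 (chr16:42955631-42955949), the copy of Ndufs5, matched 60.8% of its transcript. It had 0.640, 4.89, 3.66 and 0.775 CPM in Dp16, against 4.94, 5.71, 0.516 and 5.52 CPM in WT. Its 3 lowest libraries, Dp16 1, Dp16 4 and WT 3, were the 3 libraries in which Ndufs5 itself was highest. The sum of the pair was 5.90, 8.77, 6.09 and 6.78 CPM in Dp16, against 9.13, 9.88, 6.32 and 9.74 CPM in WT. Gm15920 (chr5:130188395-130188796), the copy of Ndufa12, matched 36.2% of its transcript and had 4.41 to 8.71 CPM in Dp16 and 6.41 to 14.0 CPM in WT. How reads were shared between a gene and its copy was not tested, and the values of Ndufs5 and Ndufa12 are therefore uncertain.

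**Figure D3:**
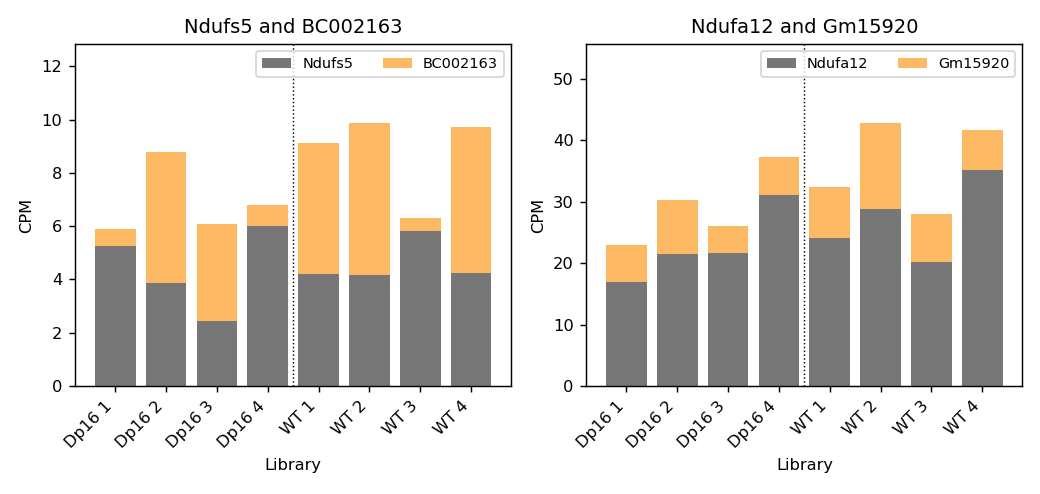
CPM of Ndufs5 with its processed pseudogene BC002163 (left) and of Ndufa12 with Gm15920 (right), stacked for each library with the 4 Dp16 libraries left of the dotted line and the 4 WT libraries right of it. BC002163 is under 1 CPM in Dp16 libraries 1 and 4 and in WT library 3, the libraries in which Ndufs5 is above 5 CPM.

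The other 15 accessory genes lay between these extremes. Log2 fold changes were -0.45 for Ndufb6, -0.42 for Ndufs6, -0.40 for Ndufa11, -0.39 for Ndufa13, -0.38 for Ndufa9, -0.36 for Ndufa5 and -0.36 for Ndufc2. Ndufs6 binds zinc at the NADH-oxidising end, Ndufa11 lies where complex I touches complex III in supercomplexes, and Ndufa9 sits at the joint of the arms. They were -0.35 for Ndufa3, -0.35 for Ndufa1, -0.35 for Ndufa10, -0.35 for Ndufb10, -0.33 for Ndufb11, -0.29 for Ndufb3, -0.27 for Ndufb9 and -0.25 for Ndufab1, the acyl carrier protein itself. Of these 15 genes, 2 (Ndufc2 and Ndufb9) were lower in Dp16 without overlap between the groups, against 6.96% of all genes. Exons of 13 of the 34 members overlap exons of a gene on the opposite strand, and 3 overlap another gene on their own strand. The sources used here do not give the strand setting of the counting, so reads of such pairs may not be told apart.

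Per kilobase of principal transcript, the members spanned a wide range of levels. Ndufa1, a small X-linked subunit needed for assembly, was highest with 107 ± 12.2 CPM per kilobase in Dp16 and 136 ± 22.7 in WT, and Ndufs5 was lowest with 8.37 ± 3.00 in Dp16 and 8.76 ± 1.53 in WT (SD, n = 4 each). The order of the 34 genes was nearly identical in the 2 groups, with a Spearman rho of 0.99 across genes, which are measured in the same libraries. In WT, 27 of the 33 neighbouring pairs in that order differed by less than 1 SD between libraries. The steps beyond that spread included those from Ndufa1 to Ndufb9, from Ndufa6 to Ndufa7 and from Ndufc1 to Ndufs5. The coefficient of variation between libraries had a median over the members of 15.7% in Dp16 and 11.3% in WT.

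The rest of complex I was read from lists of its remaining parts. Of the nuclear subunit genes outside the 34, Ndufv3 had a log2 fold change of -0.29 (edgeR adjusted p 0.17) and Ndufb1-ps one of -0.29 (edgeR adjusted p 0.232), and both overlapped between the groups. Of 18 assembly factors tested, 16 had a negative log2 fold change, with a median of -0.22. EdgeR called none, and 8 had an unadjusted edgeR p below 0.05, all lower in Dp16, against 11.9% of all genes. DESeq2 called 4 lower, against 4.37% of all genes it tested. Those 4 were Ndufaf3 (-0.44), Ndufaf8 (-0.41), Ecsit (-0.38) and Ndufaf2 (-0.37).

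Of 7 subunits encoded in mitochondrial DNA, mt-Nd3 and mt-Nd4l were under 0.1 CPM in every library and were not tested. Of the 5 tested, 4 had a negative log2 fold change, and the median was -0.29. Those of mt-Nd2, mt-Nd1 and mt-Nd5 were -0.37, -0.29 and -0.18. From these 5 genes edgeR called none and DESeq2 called mt-Nd4 lower, against 4.37% of all genes it tested. In edgeR 3 had an unadjusted p below 0.05, 2 of them lower, against 11.9% of all genes lower. The proton-pumping subunit mt-Nd4 had 311, 335, 295 and 328 CPM in Dp16, against 445, 442, 368 and 441 CPM in WT, without overlap (log2 fold change -0.42 ± 0.10, SE, edgeR adjusted p 0.071, DESeq2 adjusted p 0.0014). The exception, mt-Nd6, is the one complex I gene read from the other strand of mitochondrial DNA. It had 48.1, 44.9, 46.7 and 47.7 CPM in Dp16, against 33.4, 32.1, 43.4 and 40.2 CPM in WT. Every Dp16 library was above every WT library for mt-Nd6, with a log2 fold change of 0.33 ± 0.10 (SE, edgeR adjusted p 0.11, DESeq2 adjusted p 0.0658).

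**Figure D4:**
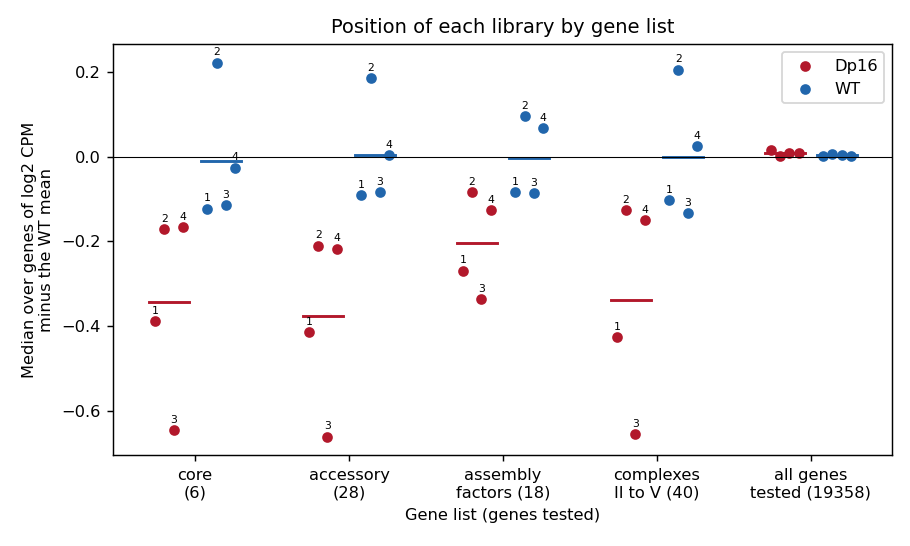
Median over genes of log2 CPM minus the WT mean, 1 point for each library (numbers are replicate numbers, Dp16 in red and left, WT in blue and right, bars are group means), for core and accessory complex I genes, assembly factors, complexes II to V and all genes tested. Dp16 libraries 1 and 3 lie lowest in the lists of respiratory genes, WT library 2 lies highest, and the libraries coincide near 0 over all genes.

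The nuclear genes of complexes II to V stood in nearly the same place, with 38 of 40 negative and a median log2 fold change of -0.34. EdgeR called none of them. At an unadjusted edgeR p below 0.05 there were 21, of which 20 were lower, against 11.9% of all genes lower. DESeq2 called 11 lower, against 4.37% of all genes it tested. Of 11 regulators of mitochondrial gene expression, 5 had a positive log2 fold change and the median was -0.01. Gabpa, which encodes the DNA-binding part of GABP and lies in the duplicated stretch, was the one regulator that edgeR called. It had 52.4, 60.2, 49.98 and 58.4 CPM in Dp16, against 37.3, 35.8, 33.2 and 37.4 CPM in WT (log2 fold change 0.62 ± 0.08, SE, edgeR adjusted p 0.0265). Nrip1, a corepressor also in that stretch, had a log2 fold change of 0.42 (edgeR adjusted p 0.0544), and Esrra, an oestrogen-related receptor, one of -0.42 (edgeR adjusted p 0.117). Polrmt had a log2 fold change of -0.44 (edgeR adjusted p 0.113, DESeq2 adjusted p 0.043). Of the 11 regulators, DESeq2 called 2 higher and 1, Polrmt, lower.

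Some lists of cell markers differed between the groups as well, and others did not. The 13 lymphoid markers summed to 92.4, 48.3, 125.3 and 75.7 CPM in Dp16 libraries 1 to 4. In WT libraries 1 to 4 they summed to 39.6, 39.1, 39.1 and 30.9 CPM. Most of each sum came from Ptprc, which is not restricted to lymphoid cells. It had 67.7, 40.0, 88.4 and 59.0 CPM in Dp16 and 26.5 to 33.5 CPM in WT. The median over the 13 markers lay 2.12, 0.18, 3.19 and 1.70 log2 units above the WT mean in Dp16 libraries 1 to 4. All 13 markers had a positive log2 fold change (median 2.15). EdgeR called none of them. All had an unadjusted edgeR p below 0.05, as did 4766 of all 19358 genes in either direction. DESeq2 called 13 higher, against 1145 of 19452 genes. Dp16 libraries 3 and 1, lowest in complex I genes, were highest in lymphoid markers, and Dp16 library 2 was nearest to WT in them. Dp16 library 3 was also highest in the sum of macrophage markers, with 472 CPM against 265 to 344 CPM in the other libraries. Of 14 acinar markers tested, 12 had a negative log2 fold change (median -0.28), and of 11 markers of granular convoluted tubules, 10 did (median -0.50). For the acinar markers Dcpp1, Dcpp2 and Dcpp3 that sign rested on 1 library, WT library 3, with 22.3, 70.8 and 39.1 CPM. Dp16 library 4 was above every other WT library for these genes. At an unadjusted edgeR p below 0.05, 3 acinar and 2 tubule markers were lower, against 11.9% of all genes. After adjustment edgeR called 1 tubule marker lower, against 0.155% of all genes. Of 15 markers of other ducts, 10 had a positive log2 fold change (median 0.09). Medians were -0.02 for 7 myoepithelial, 0.13 for 9 macrophage, -0.05 for 5 erythroid, -0.48 for 8 fat and 0.11 for 5 muscle markers. EdgeR called none of these, and no macrophage or erythroid marker had an unadjusted p below 0.05. At that threshold there were 2 myoepithelial, 3 fat and 1 muscle markers. The fat marker Ucp1 and the muscle markers Myh1, Myh2, Myh4 and Cox6a2 were under 0.1 CPM in every library. The part of these cell markers and of the share of reads outside features in the complex I values was not tested.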

How the data were processed

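Total RNA of male submandibular glands was sequenced after ribosomal depletion with a stranded kit, per the labels' protocols. The authors deposited 1 table of whole-number read counts per gene for each of 8 libraries. FastQC, STAR, HTSeq and DESeq2, with the build GRCm38, are listed in the submitters' processing notes, and neither the annotation release nor the strand setting is given in the sources used here. The 5 rows of each table that name no gene held 58.1 to 65.4% of its total and were left out. Libraries held 90790542 to 115729892 reads in genes, and no 2 libraries of a group agreed within counting noise. Of 54838 genes, 54809 matched GENCODE M21.

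Genes were tested with edgeR 4.0.16 in R 4.3.3 (filterByExpr, TMM, quasi-likelihood F-test, 4 Dp16 over 4 WT libraries, genotype only) and Benjamini-Hochberg adjustment over all 19358 genes tested. DESeq2 1.42.0, limma 3.58.1 and sva 3.50.0 served as alternatives, with other scalings, filters, a replicate block and each library left out. The scripts were tested on simulated data. Log2 CPM used a prior count of 2. P-values measure the spread between libraries, which may be technical. The members and the lists were chosen with earlier results of these data known. Values in every library were given for the 6 core genes, the 10 accessory genes with the smallest unadjusted p and the 3 with the log2 fold change nearest 0; up to 4 genes of each other list, by smallest p, were named, beside marker genes under 0.1 CPM. Levels per kilobase used the shortest best-supported principal transcript. Copies were found with BLAST 2.17.0 among GENCODE transcripts. An outlying library was sought in 68 groups of 4. One further gene of the lists is not reported here.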

Additional observations from a re-analysis of the deposited data

Results flagged for a closer look

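In 2 of the 68 groups of 4 libraries checked, 1 library stood apart from the other 3 by more than Dixon's 95% critical value for the gap over the range, which chance gives in about 1 group in 20. Ndufs8 was 43.8 CPM in WT library 2, where the other WT libraries had 30.4 to 32.1 CPM. Ndufs5 was 5.80 CPM in WT library 3, where the other WT libraries had 4.17 to 4.23 CPM and where its processed pseudogene BC002163 was at its lowest, 0.516 CPM.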

How the results depend on the processing

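The number of the 34 complex I genes called, 0 with edgeR, was 11 with DESeq2, 1 with limma-voom, 3 with 1 surrogate variable and 7 at an adjusted p below 0.10. The shares of all genes called lower were, in that order, 0.155%, 4.37%, 0.77%, 0.997% and 2.9%. Leaving out 1 library gave 0 to 1 complex I genes. The 1 was Ndufs7 without Dp16 library 2, against 0.467% of all genes called lower. Of the 6 core genes these counts were 1 with DESeq2, 1 with limma-voom and 1 at an adjusted p below 0.10 (0 to 1 with a library left out), and of the 28 accessory genes 10 with DESeq2, 3 with 1 surrogate variable and 6 at an adjusted p below 0.10. Relative log expression size factors, TMM without the most abundant genes, library totals and both other filters called 0 in each class. Over all genes, 121 were called, against 223 without an expression filter, 1996 with DESeq2, 396 with limma-voom, 328 with library totals, 446 with 1 surrogate variable and 1308 at an adjusted p below 0.10. With 1 library left out it was 0 to 446: 0 without WT library 2 or Dp16 library 1, 446 without Dp16 library 2. The share of calls that were higher in Dp16 was 75.2% with edgeR, 57.4% with DESeq2 and 93.6% with library totals. The causes were not tested.

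The median log2 fold change of the members stayed negative under every alternative run, between -0.42 and -0.20; the value nearest 0 came with library totals, an alternative chosen after seeing the data. The log2 fold change of Ndufs5 turned positive in 4 alternatives, to 0.012 with limma-voom, 0.087 with library totals, 0.055 without WT library 3 and 0.14 without Dp16 library 3, and ran from -0.26 to 0.14 with 1 library left out; the other 33 members kept their sign in all of them.

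Whether equal replicate numbers pair the libraries was not settled, and the main test took no pairing into account. The correlations of deviations for equal numbers were all positive, at 0.19, 0.13, 0.08 and 0.10. Those for unequal numbers ran from -0.22 to 0.14. WT library 4 correlated slightly better with Dp16 library 2 (0.13) than with Dp16 library 4 (0.10). A fit by edgeR that took the replicate number as a block called 11 complex I genes (1 core and 10 accessory), against 2.15% of all genes called lower, and 776 genes in all, of which 46.4% were higher in Dp16.

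Differences of the size seen here were near the limit of what 4 libraries in a group resolve: the 95% confidence intervals excluded a fold of 1.5 lower for 7 of the 34 genes and included 0 for 5.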
